A study of Capra hircus with 4 samples.

Results

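The endoplasmic reticulum (ER) folds secreted proteins with a set of chaperones, disulfide isomerases and quality-control factors, and 41 genes of that machinery are described here in single cells of the goat pancreas. The genes are the rows of the deposited feature list whose symbol is on a fixed list of 41, and all 41 were found among its 27137 genes. They comprise 9 lumenal chaperones and cochaperones, 7 disulfide isomerases and oxidases, 2 lectin chaperones, 5 genes of ER-associated degradation, 3 stress sensors, 3 stress transcription factors and effectors, 7 translocon genes, 4 genes of the signal peptidase and 1 retrieval receptor.

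The pancreas was taken from 4 female Liuyang black goats, an indigenous Chinese breed, with 2 animals aged 10 days, before rumination, and 2 aged 6 months, at the ruminating stage. The labels describe the animals as twins and give no treatment or genetic change. Minced tissue was dissociated with enzymes and loaded on a droplet platform that counts unique molecular identifiers (UMIs), so that 1 UMI stands for 1 captured RNA molecule. The 4 libraries sit in a single deposited matrix under the numbers 1 to 4. Which goat each number stands for is not given in the sources used here, and the ages were therefore not compared.

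Proteins bound for secretion enter the ER through the SEC61 channel, lose their signal peptide to the signal peptidase, and fold with the help of the chaperone BiP (HSPA5), its cochaperones, and enzymes that form disulfide bonds. When folding falls behind, the sensors IRE1 (ERN1), PERK (EIF2AK3) and ATF6 start the unfolded protein response, which raises chaperones and degradation factors through the transcription factors XBP1, ATF4 and ATF6, while DDIT3 (CHOP) and TRIB3 belong to its later, death-linked arm. Acinar cells, which secrete digestive enzymes, beta cells, which secrete insulin, and plasma cells, which secrete antibodies, are the pancreas cells with the heaviest secretory load.

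The libraries held between 43297855 and 82817057 UMIs, and 13216 barcodes were taken as cells, with median depths between 6174 and 8935 UMIs per library. Cells were clustered without these genes and named from marker genes. The ending "-like" marks a class that was rebuilt from the counts and may not match the class of that name in the study. Acinar-like cells numbered 375, 1297, 848 and 71 in libraries 1 to 4 and endocrine-like cells 679, 694, 914 and 658. Plasma-like cells, found by sub-clustering the B-lineage cluster, numbered 17, 0, 2 and 1 in the same order. The other cells, which served as the comparator, were the 7096 cells of the ductal-like, stellate/fibroblast-like, pericyte/smooth muscle-like, mesothelial-like, endothelial-like and immune-like classes, and 564 cells of unnamed clusters were left out. Of these 7096 cells, 4842 were stellate/fibroblast-like. Different clusters held the acinar-like cells of different libraries: cluster 5 held 373 of the 375 in library 1 and 65 of the 71 in library 4, and clusters 17, 22, 24, 27 and 28 held those of libraries 2 and 3. The caller of doublets marked 77, 2, 111 and 4 barcodes, which were removed, so few were removed from libraries 2 and 4. The cells of different libraries shared 17 barcode sequences.

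For each class and library the UMIs of a gene were added up and divided by the UMIs of all genes, as counts per 1000000 (CPM). Ratios between classes were taken inside each library as the log2 ratio of CPM + 1, which understates differences of genes with low counts. Plasma-like cells were the exception, since their counts were first summed over libraries. A gene was called higher when its log2 ratio was 1 or more, and lower when it was -1 or less, in all libraries that held 20 or more cells of each class, provided that the class with more of it had 20 or more counts. No test was made, since no group is known for any library and their spread is not that of replicates. A share of UMIs is limited by the other RNAs of the cell. The 10 leading genes took 64.2%, 56.5%, 51.8% and 53.7% of the UMIs of acinar-like cells in libraries 1 to 4, and between 6.87% and 10.9% in the other cells. Each ratio is therefore also given centred, that is, after subtracting the median log2 ratio of all measured genes in that library. For acinar-like against other cells that median was -2.48, -1.31, -1.15 and -2.23. For centred calls, the minimum count was still checked in the class with more of the gene before centring.

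The 41 genes together took 0.494%, 0.784%, 1.2% and 0.606% of the UMIs of acinar-like cells in libraries 1 to 4. In endocrine-like cells they took 0.842%, 0.71%, 1.09% and 1.24%, and in the other cells as a whole 0.701%, 0.695%, 1.3% and 0.688%. On this scale acinar-like cells lay below the other cells in libraries 1, 3 and 4 and above them in library 2. Without the 10 leading genes of each class, the share was 1.38%, 1.8%, 2.49% and 1.31% in acinar-like cells, 1.72%, 0.999%, 1.82% and 2.35% in endocrine-like cells and 0.752%, 0.78%, 1.44% and 0.769% in the other cells. Both secretory classes then lay above the other cells in each of the 4 libraries. The 17 plasma-like cells of library 1 had a share of 2.14%, or 4.68% without their leading genes, and the 2 plasma-like cells of library 3 had 2.88% and 3.92%. Cells of a class also varied among themselves. In acinar-like cells the share had a median of 0.536%, 0.759%, 1.18% and 0.565% per cell in libraries 1 to 4, and its 10th to 90th percentiles ran from 0.328% to 0.827% in library 1 and from 0.885% to 1.58% in library 3. Of all UMIs, the stellate/fibroblast-like cells gave these genes 0.75%, 0.679%, 1.38% and 0.726% in libraries 1 to 4. These shares lay above those of acinar-like cells in libraries 1, 3 and 4 and below in library 2. Pericyte/smooth muscle-like cells, with 0.94% and 1.61% in libraries 2 and 3, lay above the acinar-like cells in both.

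**Figure D1:**
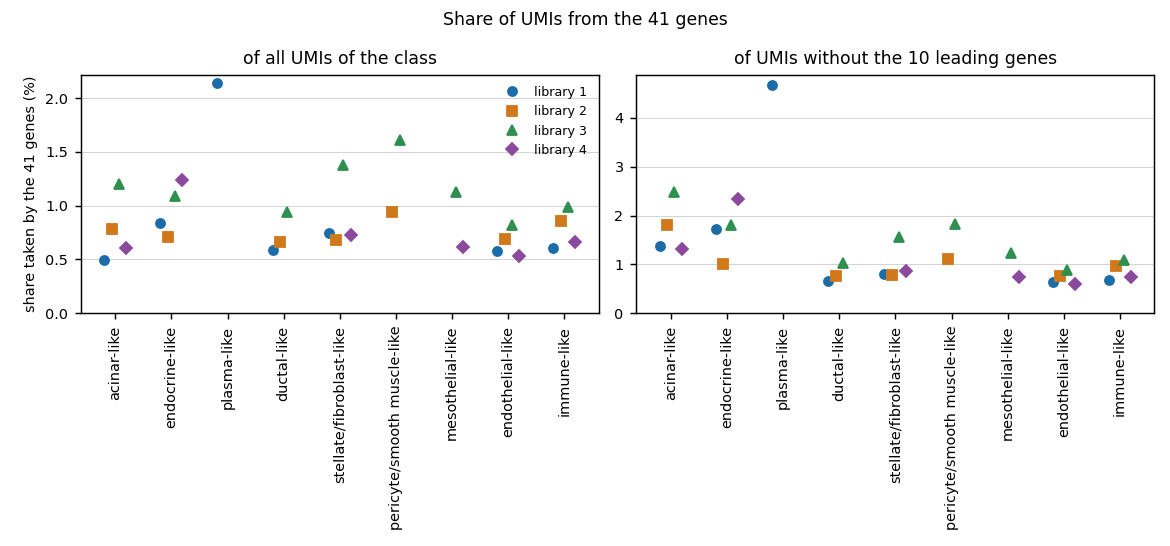
Share of UMIs that came from the 41 genes (y axis, %), by cell class (x axis) and library (symbols), for classes with at least 20 cells and for the 17 plasma-like cells of library 1; the left panel uses all UMIs and the right panel leaves out the 10 leading genes of each class and library. In the right panel the acinar-like shares of 1.31% to 2.49% lie above those of the other classes in the same library, apart from endocrine-like cells in libraries 1 and 4 and plasma-like cells.

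Acinar-like cells were set against the other cells first. Of the 41 genes, 40 passed the minimum count, and 3 were called higher: PDIA2, ERO1B and SEC11C. Over all 11837 genes measured, 0.828% were called higher. Another 3 were called lower, PDIA3, DDIT3 and KDELR2, where 51.6% of all genes were called lower. The median log2 ratio over the 41 genes was -0.61, against -1.73 over all genes measured. After centring, 16 of the 41 were called higher and 0 lower, where 4.17% of all genes were called higher and 10.6% lower, and the median of the 41 was 1.29. Of the 40 genes measured, 30 lay above the median gene in all 4 libraries, as did 29.2% of all genes. The 3 members called lower had centred medians of -0.80, -0.65 and -0.18, and none of them was called on that scale or with totals that leave out the 10 leading genes. Of the members called higher, PDIA2 kept its call under every alternative tried. ERO1B was not called with a pseudocount of 10 (median 1.64) or with the unnamed clusters among the other cells (1.55), and SEC11C was not called with cells from 1000 UMIs (1.66) or against the unweighted mean of the other classes (1.23).

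PDIA2, a disulfide isomerase made mainly in the pancreas, stood furthest from the others. Its level in acinar-like cells was 905, 514, 1097 and 825 CPM in libraries 1 to 4, against 20.8, 24.2, 27.9 and 3.45 CPM in the other cells and 8.12, 13.9, 17.3 and 0.726 CPM in endocrine-like cells. The acinar-like values all lay above all those of the other classes. The log2 ratio to the other cells was 5.38, 4.35, 5.25 and 7.54, with a median of 5.31, or 39.8-fold. The fold depends on a comparator level near that of free RNA. Barcodes of 10 to 100 UMIs, which hold mostly free RNA, held PDIA2 at 688, 289, 313 and 48.2 CPM in libraries 1 to 4. Judged from acinar enzyme counts, their profile could make up at most 4.34%, 8.35%, 5.57% and 6.98% of the UMIs of the other cells, which would give PDIA2 levels of 29.9, 24.1, 17.5 and 3.37 CPM there. These lie above the measured level in library 1, just below it in libraries 2 and 4 and further below it in library 3. With that profile subtracted, the median log2 ratio was 8.59. By the levels above, little or no PDIA2 is then left in the other cells of libraries 1, 2 and 4. The value of 8.59 thus depends on the 1 CPM added to each level and is no measured fold. Among the other classes, ductal-like cells had the highest PDIA2 levels, at 32.3, 82.2 and 129 CPM in libraries 1 to 3. The part of free RNA in the ductal-like values was not tested. Within the acinar-like class, over clusters with at least 20 cells in a library, PDIA2 ranged from 393 CPM in cluster 24 of library 2 to 1175 CPM in cluster 28 of library 3.

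The other 5 isomerases lay near or below the other cells on the CPM scale. P4HB, the beta subunit of prolyl 4-hydroxylase and itself a protein disulfide isomerase, had 262, 421, 924 and 241 CPM in acinar-like cells against 223, 282, 744 and 204 CPM in the other cells. Its log2 ratio was above 0 in each library (0.23, 0.57, 0.31 and 0.24) and stayed under the threshold of 1, while its centred median was 2.18 and was called higher. PDIA3, the isomerase that works with calreticulin and calnexin on glycoproteins, had 12.8, 41.6, 64.6 and 20.2 CPM in acinar-like cells and 146, 119, 257 and 170.3 CPM in the other cells, with a log2 ratio of -3.41, -1.50, -1.98 and -3.01. PDIA4, PDIA6 and TXNDC5, which hold further thioredoxin-like domains, had medians of -0.84, -1.45 and -1.21 and were not called on either scale. Among these 7 genes the median log2 ratios thus ran from -2.49 for PDIA3 to 5.31 for PDIA2.

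ERO1B, the oxidase that re-oxidises the isomerases, is known from endocrine and exocrine pancreas. It was higher in acinar-like cells and in endocrine-like cells as a whole. It had 90.1, 25.5, 56.9 and 56.0 CPM in acinar-like cells and 60.5, 69.8, 205 and 448 CPM in endocrine-like cells, against 7.95, 9.71, 11.2 and 11.3 CPM in the other cells. The lowest acinar-like value, that of library 2, was above the highest of the other cells. The log2 ratio of acinar-like to other cells was 3.35, 1.31, 2.24 and 2.21. In library 1 the acinar-like level was above the endocrine-like one, and in libraries 2, 3 and 4 it was below.

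The signal peptidase cuts the signal peptide from proteins that enter the ER. SEC11C, 1 of its catalytic subunits, had 190.2, 259.5, 446 and 343 CPM in acinar-like cells, 239, 147, 272 and 293 CPM in endocrine-like cells and 87.0, 89.8, 130.4 and 68.7 CPM in the other cells. The acinar-like values lay above those of the other cells without overlap, with a log2 ratio of 1.12, 1.52, 1.77 and 2.30. Ductal-like cells, counted among the other cells, had 137, 297 and 311 CPM in libraries 1 to 3. The accessory subunits SPCS1, SPCS2 and SPCS3 were not called on the CPM scale, with medians of 0.19, -0.71 and 0.06. After centring, SPCS1 and SPCS3 were called higher (1.75 and 1.75), and SPCS2 was not (0.99).

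The 7 translocon genes had median log2 ratios between -1.15 and 0.83, and none was called on the CPM scale. SSR4, the delta subunit of the translocon-associated protein complex, had 1175, 1541, 1372 and 1657 CPM in acinar-like cells and 570.1, 999, 1004 and 649 CPM in the other cells. Its ratio was above 0 in all 4 libraries (1.04, 0.62, 0.45 and 1.35). SEC61A1, which forms the channel itself, had ratios of -0.43, 0.82, 0.77 and -0.55, on both sides of 0. After centring, SEC61A1, SSR3 and SSR4 were called higher, with medians of 1.98, 1.62 and 2.73. SEC61B, SEC61G, SSR1 and SSR2 were not called on either scale.

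None of the 9 lumenal chaperones and cochaperones was called for acinar-like cells on the CPM scale. HSPA5, the main ER chaperone and the sensor-binding protein of the pathway, had 101, 288, 543 and 93.7 CPM in acinar-like cells against 368, 246, 601 and 361 CPM in the other cells. The log2 ratio was -1.85, 0.23, -0.15 and -1.94, so the 2 classes were close in libraries 2 and 3 and apart in libraries 1 and 4. HSP90B1 (GRP94), the ER member of the HSP90 family, had 116, 269, 661 and 99.2 CPM against 593, 536, 1412 and 579.7 CPM and was lower in each library, by log2 ratios of -2.34, -0.99, -1.09 and -2.54. In library 2 its ratio fell just short of the threshold. After centring, DNAJB9, DNAJC3, SDF2L1, HYOU1 and CRELD2 were called higher, with medians of 2.39, 1.52, 2.42, 1.78 and 1.93. DNAJB9 and DNAJC3 are J-domain cochaperones of HSPA5, SDF2L1 is a partner of the J-domain protein DNAJB11, HYOU1 exchanges nucleotides on HSPA5, and CRELD2 is a stress-induced disulfide isomerase-like protein. HSPA5 itself, HSP90B1, DNAJB11 and MANF were not called after centring, with medians of 0.82, 0.10, 0.60 and 0.96.

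CALR and CANX, the lectin chaperones that hold glycoproteins during folding, had medians of -1.63 and -0.90 and were not called on either scale. Of the 5 genes of ER-associated degradation, HERPUD1, which recruits substrates to the membrane ligase, and SEL1L, the partner of the ligase SYVN1, were called higher after centring (1.43 and 1.70). SYVN1 and the mannosidase-like proteins EDEM1 and EDEM2, which mark glycoproteins for degradation, were not called, at 1.35, 1.41 and 1.25 after centring. KDELR2, the receptor that returns escaped chaperones from the Golgi, had 28.5, 81.7, 106 and 38.6 CPM in acinar-like cells and 218, 197, 394 and 177 CPM in the other cells. Its ratios of -2.89, -1.26, -1.88 and -2.17 were below -1 throughout.

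The 3 stress sensors were low and were not called. ERN1 had 0.984, 10.8, 8.7 and 1.84 CPM, EIF2AK3 7.38, 20.4, 23.6 and 6.43 CPM and ATF6 13.8, 29.4, 28.6 and 8.27 CPM in acinar-like cells. The ratio of ERN1 to the other cells was -2.48, 0.53, 0.61 and -2.72, with a different sign in different libraries. DDIT3, the transcription factor CHOP, had 3.94, 15.2, 7.32 and 10.1 CPM in acinar-like cells, 70.5, 62.1, 18.8 and 147 CPM in endocrine-like cells and 70.7, 56.6, 28.4 and 80.0 CPM in the other cells. Every acinar-like value was below every value of the other cells, with log2 ratios of -3.86, -1.83, -1.82 and -2.87. ATF4, the factor upstream of DDIT3, had ratios of -1.42, -0.34, -0.51 and -0.81 and was not called. TRIB3, a pseudokinase induced by DDIT3, was too low to be measured, at 0, 0.601, 0 and 0 CPM in acinar-like cells and at 0.804, 1.34, 0.502 and 1.44 CPM in the other cells. Among 15 immediate early genes, which dissociation of tissue can raise, 4 were called lower in acinar-like cells and 0 higher, with a median log2 ratio of -2.31, where 51.6% of all genes were called lower. After centring 1 was called lower and 0 higher, with a median of -0.53. Their summed level was 1218 to 3817 CPM in acinar-like cells and 5074 to 15433 CPM in the other cells, and their part in the DDIT3 difference was not tested.

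**Figure D2:**
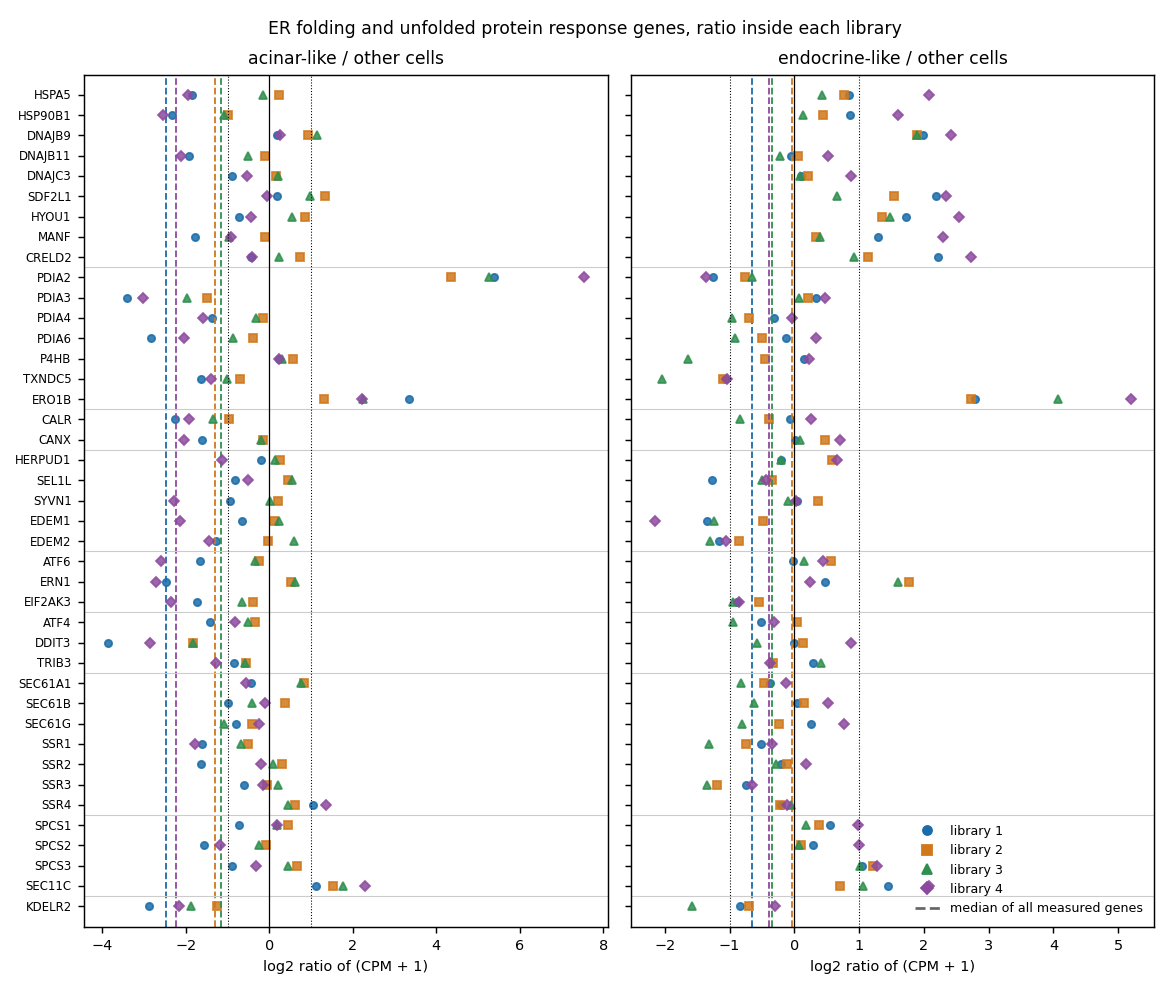
Log2 ratio of (CPM + 1) for each of the 41 genes (rows, grouped by role with grey lines) in acinar-like against other cells (left) and endocrine-like against other cells (right); each symbol is 1 library, dotted lines mark -1 and 1, and dashed lines mark the median of all measured genes in each library. PDIA2, ERO1B and SEC11C lie beyond 1 in all 4 libraries on the left, and most other genes on the left lie below 0 yet to the right of the dashed lines.

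Endocrine-like cells were then set against the same other cells. Of the 40 genes that passed the minimum count, DNAJB9, HYOU1, ERO1B and SPCS3 were called higher (4 genes, where 8.47% of all 12636 genes were called higher) and TXNDC5 was called lower (1 gene, where 18% of all genes were called lower). The share of the 41 genes called higher, 9.76%, was near that background. The median log2 ratio of the 41 genes was 0.03, against -0.35 over all genes. After centring, SDF2L1 and CRELD2 joined the genes called higher, which made 6, and 0 were called lower, where 11.4% and 15.3% of all genes were called. DNAJB9 and ERO1B kept their calls under every alternative tried. HYOU1 was not called against the unweighted mean of the other classes (1.64), and SPCS3 was not called there (0.93), with a pseudocount of 10 (1.08) or with the unnamed clusters among the other cells (0.99). TXNDC5 was not called with a pseudocount of 10 (-0.97), with cells from 1000 UMIs (-1.07), with the unnamed clusters (-1.07), against the unweighted mean (-0.80), without the 10 leading genes (-0.53) or after centring (-0.86).

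ERO1B had the highest ratio of the 41 genes in this comparison, at 2.78, 2.73, 4.07 and 5.19 in libraries 1 to 4, a median of 3.43 or 10.8-fold. DNAJB9 had 120.2, 108, 118 and 188 CPM in endocrine-like cells and 29.7, 28.4, 30.9 and 34.5 CPM in the other cells. These values did not overlap, and the log2 ratio was 1.98, 1.89, 1.89 and 2.41. HYOU1 had 99.4, 62.6, 154 and 180.4 CPM against 29.4, 23.8, 54.7 and 30.1 CPM, again without overlap, with log2 ratios of 1.73, 1.36, 1.47 and 2.54. SPCS3 had 354, 283, 407 and 405 CPM against 171, 122, 200.1 and 168 CPM, with ratios of 1.05, 1.21, 1.02 and 1.27, just beyond the threshold in each library.

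HSPA5, HSP90B1, SDF2L1, CRELD2, MANF and DNAJC3 had ratios above 0 in each library without reaching the threshold in all 4. HSPA5 had 658, 419.6, 809 and 1531 CPM in endocrine-like cells, and its ratio was 0.84, 0.77, 0.43 and 2.08. HSP90B1 had 1083, 731, 1559 and 1752 CPM and ratios of 0.87, 0.45, 0.14 and 1.59. SDF2L1 had ratios of 2.18, 1.53, 0.66 and 2.34, CRELD2 of 2.21, 1.14, 0.92 and 2.73 and MANF, a stress-induced secreted protein that protects beta cells, of 1.29, 0.34, 0.39 and 2.29. The cochaperones DNAJC3 and DNAJB11 had ratios of 0.11, 0.21, 0.10 and 0.87 and of -0.05, 0.06, -0.22 and 0.52, the latter on both sides of 0. For HSPA5, HSP90B1, MANF, SDF2L1 and CRELD2 the highest ratio was that of library 4. The highest endocrine-like level of each also came from library 4. In library 4, 546 of 658 endocrine-like cells were beta-like. In libraries 1 to 3, 297 of 679, 424 of 694 and 434 of 914 were. The part of this mix in the ratios was not tested.

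TXNDC5 and most genes of translocation and degradation lay near or below the other cells. The lectin chaperones CALR and CANX had medians of -0.23 and 0.28. TXNDC5 had 48.2, 58.2, 56.2 and 59.3 CPM in endocrine-like cells and 102, 126, 235 and 123 CPM in the other cells, with ratios of -1.07, -1.10, -2.05 and -1.04. TXNDC5 was highest among the other cells in pericyte/smooth muscle-like cells, with 237 and 310.0 CPM in libraries 2 and 3, and in stellate/fibroblast-like cells, with 125, 143, 274 and 203 CPM in libraries 1 to 4. The medians of the translocon genes ran from -0.97 for SSR3 to 0.10 for SEC61B, and those of the degradation genes from -1.29 for EDEM1 to 0.18 for HERPUD1. None of these genes but TXNDC5 was called. Of the sensors, ERN1 had ratios of 0.47, 1.76, 1.60 and 0.23, ATF6 of -0.01, 0.57, 0.15 and 0.45 and EIF2AK3 of -0.88, -0.55, -0.95 and -0.85. DDIT3 had ratios of -0.01, 0.13, -0.57 and 0.87 and ATF4 of -0.51, 0.04, -0.95 and -0.32, neither with the same sign throughout. The profile of free RNA could account for at most 1.98% to 6.66% of the UMIs of endocrine-like cells, as judged from their acinar enzyme counts.

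**Figure D3:**
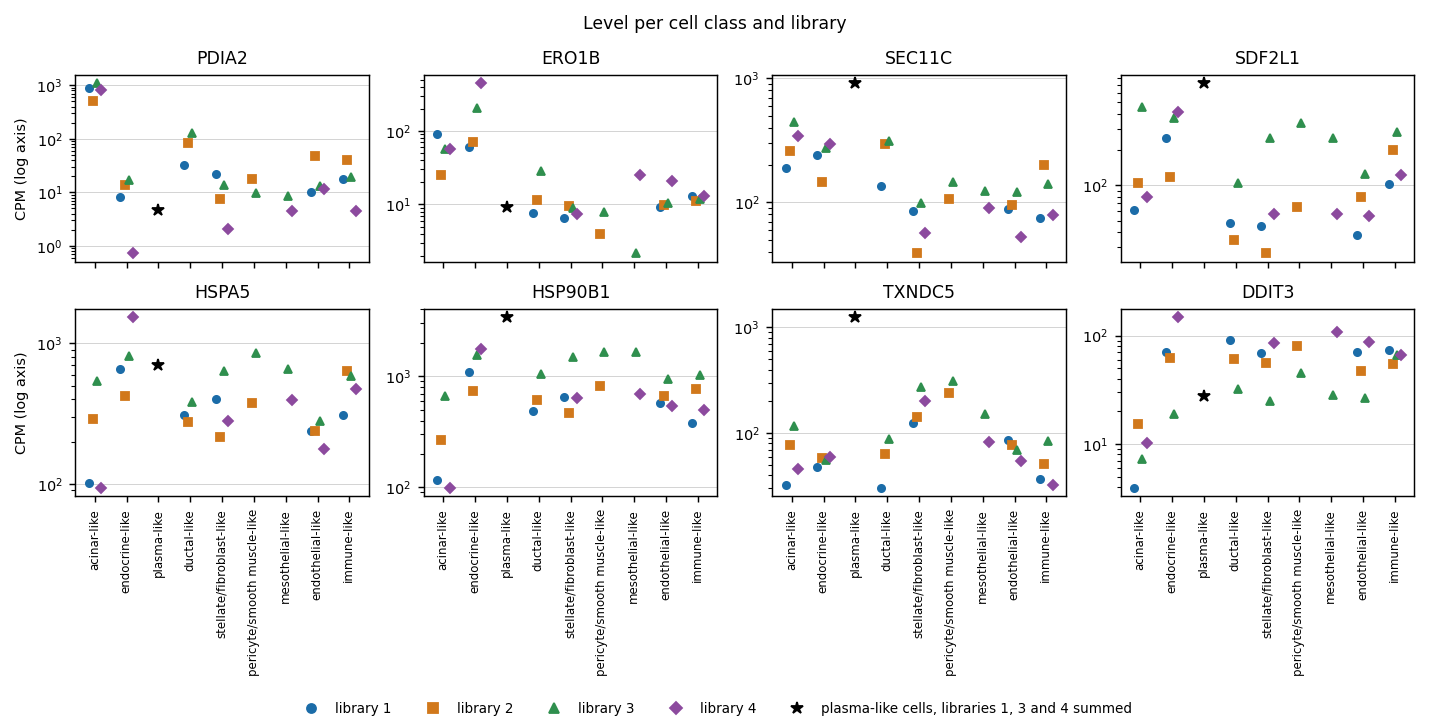
Level in CPM (y axis, log scale) of 8 of the 41 genes by cell class (x axis), with 1 symbol per library for classes of at least 20 cells and a star for the plasma-like cells of libraries 1, 3 and 4 summed. PDIA2 stands between 514 and 1097 CPM in acinar-like cells, DDIT3 is lowest in acinar-like cells, and HSP90B1, SEC11C and TXNDC5 are highest in plasma-like cells.

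Acinar-like and endocrine-like cells were also compared directly inside each library. PDIA2 was the 1 gene called higher in acinar-like cells (0.99% of all 10905 genes), with log2 ratios of 6.63, 5.11, 5.91 and 8.90. At most, free RNA would give endocrine-like cells PDIA2 levels of 13.6, 16.5, 15.6 and 3.21 CPM in libraries 1 to 4. The levels measured there were 8.12, 13.9, 17.3 and 0.726 CPM, so these ratios depend on a comparator near or below that limit. HSP90B1, PDIA3 and DDIT3 were called lower (3 genes, where 41.8% of all genes were called lower). The log2 ratios of HSP90B1 were -3.21, -1.44, -1.24 and -4.13, those of PDIA3 -3.74, -1.71, -2.05 and -3.48 and those of DDIT3 -3.86, -1.97, -1.25 and -3.74. None of these 3 was called after centring, HSP90B1 and DDIT3 were not called without the 10 leading genes (-1.80 and -2.41), and DDIT3 was not with a pseudocount of 10 (-2.02). The median over the 41 genes was -0.65, against -1.47 over all genes. After centring, 9 genes were called higher, where 4.93% of all genes were, and 0 lower, where 8.32% were. Besides PDIA2, these were the isomerases P4HB (2.16) and TXNDC5 (1.62), the degradation genes SEL1L (2.04) and EDEM2 (1.96), the translocon genes SEC61A1 (2.14), SSR3 (2.40) and SSR4 (2.65), and SEC11C (1.84). None of the 9 lumenal chaperones was among them, and the median of that role after centring was -0.25. On the CPM scale HSPA5 had ratios of -2.69, -0.54, -0.57 and -4.02, below 0 in each library, and SSR4 had ratios of 1.25, 0.84, 0.50 and 1.47, above 0 in each.

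Among endocrine-like cells, the beta-like ones (297, 424, 434 and 546 in libraries 1 to 4) were set against alpha-like, delta-like and PPY-led endocrine cells, the last named here only by their leading gene. ERO1B was the 1 gene of the 41 called higher, where 2.02% of all 9681 genes were, and 0 were called lower, where 1.99% were. ERO1B had 148, 107, 431 and 507 CPM in beta-like cells, 11.3 and 29.2 CPM in alpha-like cells of libraries 2 and 3, 33.4, 15.8 and 53.6 CPM in delta-like cells of libraries 1 to 3, and 13.5, 10.6, 18.2 and 19.2 CPM in PPY-led cells of libraries 1 to 4. Every beta-like value was above every one of these. The log2 ratio was 3.22, 3.15, 4.10 and 2.75. The 18 delta-like cells of library 4 held ERO1B at 354 CPM, and INS was the leading gene of their UMIs, ahead of SST. After centring, ERO1B was again the 1 gene called higher and 0 were called lower, where 2.06% and 2.28% of all genes were.

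The other members lay mostly above 0 in beta-like cells without reaching the threshold. Of 39 genes measured, 22 had a ratio above 0 in all 4 libraries and 0 had a ratio below 0 in all 4, where 20% and 12.9% of all genes did. The median over the 41 genes was 0.57, against 0.08 over all genes. SDF2L1 had 396, 123, 537 and 466 CPM in beta-like cells and ratios of 1.21, 0.14, 1.17 and 1.93. HERPUD1 had 169.8, 154, 116 and 271 CPM and ratios of 1.67, 0.86, 0.96 and 2.08, and DDIT3 had 131, 76.3, 22.1 and 164 CPM and ratios of 1.71, 0.92, 0.44 and 1.89. HSPA5 had 955, 424, 1008 and 1682 CPM in beta-like cells, 845, 559 and 924 CPM in delta-like cells of libraries 1 to 3, and 472, 482, 668 and 546 CPM in PPY-led cells. Its ratios were 0.92, 0.03, 0.63 and 1.52, and beta-like and delta-like values overlapped. For these 4 genes library 2 had a lower ratio than libraries 1 and 4. EDEM1 and EIF2AK3 had median ratios of -0.37 and -0.22, the lowest of those measured. Of 15 immediate early genes, 2 were called higher in beta-like cells and 0 lower, with a median of 0.88. Their summed level was 1487 to 11290 CPM in beta-like cells and 1066 to 5178 CPM in PPY-led cells, and it was 6469, 5454 and 1937 CPM in delta-like cells of libraries 1 to 3 and 4321 and 1284 CPM in alpha-like cells of libraries 2 and 3. In library 3 the delta-like level was above the beta-like one of 1487 CPM. The part of these genes in the ratios was not tested.

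**Figure D4:**
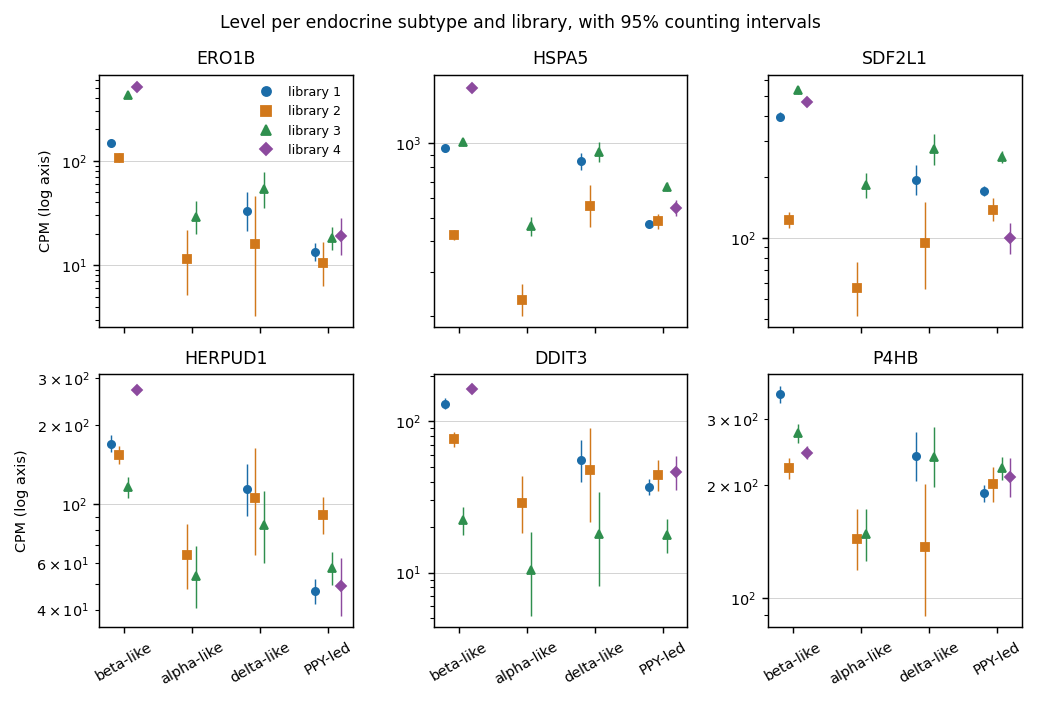
Level in CPM (y axis, log scale) of 6 of the 41 genes in beta-like, alpha-like, delta-like and PPY-led endocrine cells (x axis), with 1 symbol per library for classes of at least 20 cells; bars are exact Poisson 95% intervals, which cover counting error only. ERO1B lies between 107 and 507 CPM in beta-like cells and under 54 CPM in the other classes shown.

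Plasma-like cells were rare, so the 20 cells of libraries 1, 3 and 4 were summed (429407 UMIs, median 21506.5 per cell) and set against the 5788 other cells of those libraries. The 1 cell of library 4 was led by TMSB10 and TMSB4X and gave the 41 genes 0.459% of its UMIs, whereas the 2 cells of library 3 gave them 2.88%. The leading genes of the library 4 cell are no plasma markers, so its class is uncertain, and its 32221 UMIs stay in the sums. Without library 4, 16 of the 41 genes were called higher and 2 lower, with PDIA2 and P4HB as the lower ones and DDIT3 at -0.55. Cycling genes, of which all 10 listed were seen, summed to 1474 CPM in plasma-like cells and 198 CPM in the other cells, and 7 of the 20 cells held a TOP2A UMI. Markers of the plasma class, of which 10 of 11 were seen, summed to 22766 CPM against 75.1 CPM. Most of that sum came from JCHAIN (17885 CPM) and MZB1 (4189.5 CPM). Markers of B cells, of which 8 of 8 were seen, summed to 524 CPM against 49.0 CPM. Against the other sub-clusters, 6 of the 11 plasma markers and 0 of the 8 B markers were raised. The part of cycling in the values below was not tested. With 1 summed sample there is no spread between libraries, and the intervals given cover counting error only. A call here rests on 1 ratio, which was not taken inside a library. Library 1 gave 369449 of the 429407 UMIs of plasma-like cells. In the other cells it gave 9943674 UMIs, where libraries 3 and 4 gave 15930796 and 15950801. Differences between libraries thus enter the summed ratios.

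Of the 41 genes, 15 were called higher in plasma-like cells, where 1.5% of all 15188 genes were, and 2 were called lower, PDIA2 and DDIT3, where 57.4% of all genes were. The 41 genes took 2.06% of the UMIs of plasma-like cells and 0.923% of those of the other cells. Their median log2 ratio was 0.76, against -1.23 over all genes. After centring, 32 were called higher, where 8.63% of all genes were, and 0 lower, where 27.9% were. The minimum count was that of the class with more of the gene before centring. For HYOU1, ERO1B, SYVN1, ATF6 and SEC61A1, all among the 32, that class was the other cells. Their log2 ratios before centring were -0.075, -0.153, -0.161, -0.195 and -0.008. Their centred calls therefore put no minimum on the count in plasma-like cells, and that of ERO1B was below it. Plasma-like cells were deep for this tissue, and without the 5% of cells with the highest doublet scores in each library the same 15 genes were called higher and 1 lower. With the 17 cells of library 1 alone, a choice made after seeing that no library held 20, 23 genes were called higher and 2 lower, where 1.44% and 69% of all genes were. Centred in that library, 34 were called higher and 0 lower, where 18.9% and 29.4% of all genes were.

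All 4 genes of the signal peptidase were called higher. SEC11C had 918 CPM (95% counting interval 829 to 1013) in plasma-like cells and 96.5 CPM in the other cells, a log2 ratio of 3.23. SPCS1, SPCS2 and SPCS3 had log2 ratios of 1.90, 1.36 and 2.05. In library 1 alone SEC11C was not the first: SDF2L1 had 3.83, TXNDC5 3.74, CRELD2 3.64 and SEC11C 3.42. For SEC11C the plasma-like level was also above that of acinar-like cells in each library.

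Of the 9 lumenal chaperones and cochaperones, 7 were called higher. HSP90B1 had 3386 CPM (3214 to 3565) in plasma-like cells against 900.1 CPM in the other cells. SDF2L1 had 729 CPM (650.4 to 814) against 133 CPM, and MANF had 948 CPM (858 to 1045) against 194 CPM. The plasma-like level of each of these 3 lay above those of the acinar-like and endocrine-like cells in all 4 libraries. CRELD2, DNAJB11, DNAJB9 and DNAJC3 had log2 ratios of 2.58, 2.07, 1.80 and 1.52. HSPA5 and HYOU1, at 0.63 and -0.07, were the 2 chaperones not called on the CPM scale. After centring both were called higher (1.86 and 1.15), and in library 1 alone HSPA5 was called higher at 1.08 and HYOU1, at 0.45, was not. For the centred call of HYOU1, the minimum count was checked in the other cells and not in plasma-like cells. HSPA5 had 703 CPM (626 to 787) in plasma-like cells and 454 CPM in the other cells.

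Among the isomerases and oxidases, TXNDC5 alone was called higher on the CPM scale. It had 1244 CPM (1140 to 1354) in plasma-like cells and 161 CPM in the other cells, a log2 ratio of 2.94. This is the gene that was lower in endocrine-like cells. PDIA2 was seen 2 times in plasma-like cells (4.66 CPM, 0.564 to 16.8) and ERO1B 4 times (9.31 CPM, 2.54 to 23.9). The other cells had PDIA2 at 16.9 CPM and ERO1B at 10.5 CPM. By CPM, the 2 genes that stood out in acinar-like or endocrine-like cells therefore did not do so here. After centring, PDIA2 was not called (-0.43), and ERO1B was called higher (1.075) with 4 UMIs in plasma-like cells. The PDIA2 level of the other cells is near that of free RNA. The free RNA profile could make up at most 4.34%, 5.57% and 6.98% of their UMIs in libraries 1, 3 and 4. In plasma-like cells it could make up at most 1.83%, 2.66% and 0.794%. Its part in the lower call of PDIA2 was not tested. P4HB had a log2 ratio of -0.98 and PDIA3 of -0.49.

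The remaining roles held 3 further genes called higher on the CPM scale. HERPUD1 (1.82) and EDEM2 (1.16) were degradation genes, and SSR3 (1.12) belongs to the translocon. ERN1 had 11 counts and a log2 ratio of 1.13, and its count was under the minimum for a call. DDIT3 had 12 counts, 27.9 CPM (14.4 to 48.8) against 58.1 CPM, a log2 ratio of -1.03 that turned to 0.20 after centring. TRIB3 was not seen in plasma-like cells. Its 0 counts of 429407 UMIs allow a level of up to 8.59 CPM as the upper end of the interval.

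**Figure D5:**
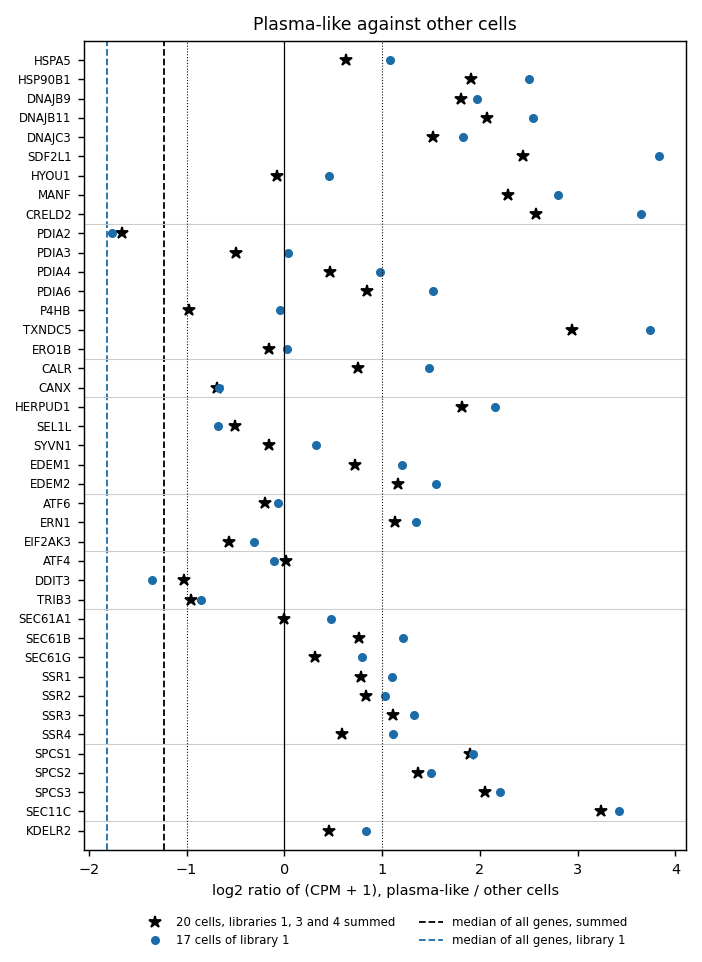
Log2 ratio of (CPM + 1) of plasma-like against other cells for each of the 41 genes (rows), for the 20 cells of libraries 1, 3 and 4 summed (stars) and for the 17 cells of library 1 (circles); dotted lines mark -1 and 1, and dashed lines mark the median of all measured genes. SEC11C and TXNDC5 have the highest summed ratios, 3.23 and 2.94, while SDF2L1 and TXNDC5 have the highest in library 1, 3.83 and 3.74; PDIA2 and DDIT3 are the genes beyond -1 in both.

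A wider list of 109 genes of the same pathway, none of them among the 41, was read by the same rule. In acinar-like against other cells 4 of 109 were called higher and 36 lower, where 0.828% and 51.6% of all genes were, with a median log2 ratio of -1.21 against -1.73 over all genes. After centring 26 were higher and 4 lower, where 4.17% and 10.6% of all genes were. ERP27, a pancreatic member of the isomerase family that lacks a catalytic site, had ratios of 5.22, 4.43, 5.43 and 7.03. PSAT1, a serine synthesis enzyme and target of ATF4, had ratios of 3.84, 3.43, 2.52 and 4.38, and DERL3, a channel component of degradation, of 2.48, 3.88, 4.54 and 3.07. The other gene called higher was ASNS, the asparagine synthetase that ATF4 induces, with a median of 2.46, named after its value was seen. XBP1, the factor activated by ERN1, had 246, 442, 508 and 342 CPM in acinar-like cells and 149.9, 140.0, 218 and 158 CPM in the other cells. These values did not overlap. Its ratios of 0.71, 1.65, 1.22 and 1.11 missed the threshold in library 1, and its centred median of 3.08 was called higher.

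In endocrine-like against other cells 2 of the 109 were called higher and 9 lower, where 8.47% and 18% of all genes were, with a median of -0.31 against -0.35 over all genes. TUSC3, a subunit of the oligosaccharyl transferase, was higher at 1.92, 1.52, 1.75 and 2.27, as was ERLEC1, a lectin of degradation named after its value was seen, with a median of 1.40. NUPR1, a stress-induced chromatin protein, and CREB3L1, an ER-bound factor of collagen-secreting cells, were lower with medians of -4.79 and -3.96. XBP1 had ratios of 0.50, 0.58, 0.12 and 0.33. In plasma-like cells 11 of the 109 were called higher and 33 lower, where 1.5% and 57.4% of all genes were. DERL3 had a log2 ratio of 7.52 there, and XBP1, a factor that plasma cells need, one of 0.72, with 296 CPM (247 to 352) against 179 CPM. In acinar-like against endocrine-like cells 4 were called higher and 18 lower, where 0.99% and 41.8% of all genes were. ERP27 and NUPR1 had medians of 6.26 and 5.71, and TUSC3 one of -3.97. In beta-like against other endocrine-like cells VLDLR, a lipoprotein receptor listed as an ATF4 target, was the 1 gene called higher, at 2.04, 2.43, 2.42 and 1.24, and 0 were called lower, where 2.02% and 1.99% of all genes were. XBP1 lay below 0 there in each library, at -0.33, -0.41, -0.71 and -0.51.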

How the data were processed

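Pancreas cells of 4 goats were profiled by droplet sequencing, and the authors deposited whole UMI counts per gene and barcode in a single unfiltered matrix of 4 libraries with 247275915 UMIs. Per the submitters' processing notes Cell Ranger 3.1.0 and Seurat 3.1.1 were used, and per the file headers the matrix comes from Cell Ranger 5.0.1. The build of the genome is not given in the sources used here. No label ties a library to an animal, so the planned comparison of the ages by edgeR was not run.

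Barcodes above 1/10 of the 99th percentile of the 8000 largest of their library, with at least 500 genes, were taken as cells. Doublets were removed with Scrublet at its automatic threshold. Clustering used scanpy 1.11.5 (2000 variable genes, 30 components, 15 neighbours, Leiden at resolution 1 with igraph 0.11.9) and left out the 175 genes of the lists. Classes needed 3 markers raised 2-fold. Counts were summed per class and library, expressed as CPM, and compared as the log2 ratio of CPM + 1. Centring, other totals, pseudocounts, minimum counts, cell calling, doublets, comparators, free RNA and leaving out a library were alternatives. The centred call rule was run on simulated counts for the comparisons other than that of plasma-like cells. Its outcome is not used here.

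All 41 genes may be named. Of the 109 further pathway genes, called ones are named, at most the 10 with the highest absolute median ratio per comparison, and XBP1 always. ASNS and ERLEC1 fall outside this rule and were chosen after their values were seen. Members and lists were chosen with earlier results of these data known. All 41 were found by ID and symbol in RefSeq's goat gene table (assembly ARS1.2).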

Additional observations from a re-analysis of the deposited data

How the results depend on the processing

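Of 190 counts of called genes recomputed under the alternatives, 153 stayed within 1.5 times of the reported count and 37 moved. Of 479 recomputed ratios of called members, 442 kept the call and 37 lost it. By size, 402 were counted as moved by less than the spread between libraries, 76 by more, and 1 changed sign (DDIT3 in plasma-like cells, 0.20 after centring). Of the 479, 238 were ratios of plasma-like cells, a summed sample without such a spread. For those the split by spread cannot be read. Reported counts are 3 higher and 3 lower for acinar-like, 4 and 1 for endocrine-like and 15 and 2 for plasma-like against other cells, and 1 and 3 for acinar-like against endocrine-like cells.

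The scaling moved the counts most. Centring gave 16 higher and 0 lower members for acinar-like against other cells (26 and 4 of the further pathway genes), 0 lower for endocrine-like (5 pathway genes higher), 32 and 0 for plasma-like (42 and 19 pathway genes), 9 and 0 for acinar-like against endocrine-like (17 and 1 pathway genes), and 2 pathway genes higher for beta-like cells. Totals without the 10 leading genes gave 6 and 0, 8 and 0, 26 and 1, and for acinar-like against endocrine-like cells 1 lower. Subtracting the free RNA profile gave 5 lower members for acinar-like cells. For endocrine-like cells, 0 were lower with a pseudocount of 10, with cells from 1000 UMIs or with unnamed clusters among the others, and 2 were higher against the unweighted mean of classes. For plasma-like cells, 0 were lower with a pseudocount of 10, 1 was lower without the top 5% of doublet scores, and 23 were higher in library 1 alone. The cause was not tested, beyond what each construction changes.

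Leaving out 1 library at a time gave 3 to 3 higher and 3 to 6 lower members for acinar-like against other cells (6 without library 2) and 4 to 6 higher and 1 to 3 lower for endocrine-like (3 without library 2). It gave 16 to 20 higher and 2 to 2 lower for plasma-like, 1 to 1 higher and 3 to 4 lower for acinar-like against endocrine-like, and 1 to 2 higher and 0 to 0 lower for beta-like cells, where SDF2L1 joined ERO1B without library 2. For the pathway genes it gave 4 to 5 higher and 36 to 43 lower, 3 to 3 and 9 to 13, 10 to 17 and 33 to 38 (17 without library 3), 4 to 5 and 18 to 24, and 1 to 3 and 0 to 0 in the same order (2 without library 1, 2 without library 2, 3 without library 4). Plasma-like cells without library 1 could not be compared, since 3 cells remained. Leaving out cluster 17 or 26, alternatives added after seeing the data, moved no count by more than 1.5 times.

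No paired analysis was possible because no label ties the library numbers to the replicate numbers of the animals. The age comparison and its alternatives were not run for the same reason. The depth limits what can be said of TRIB3 and of the plasma-like cells, whose 20 cells allow no spread between libraries.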

Other observations

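In acinar-like cells the ratios of libraries 1 and 4 lay apart from those of libraries 2 and 3. For 34 of the 41 genes, the log2 ratio of acinar-like to other cells was lower in both libraries 1 and 4 than in both 2 and 3, as it was for 73.6% of all 11837 genes. The median log2 ratio of all measured genes was -2.48 and -2.23 in libraries 1 and 4 and -1.31 and -1.15 in libraries 2 and 3. After centring, 6 of the 41 genes were lower and 13 higher in libraries 1 and 4 than in libraries 2 and 3, where 21.1% and 26.5% of all genes were. No label ties these libraries to an age or an animal.

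A list of 10 cytosolic chaperones and housekeeping genes, which fold or serve outside the ER, had a median log2 ratio of -1.59 in acinar-like against other cells, with 6 called lower and 0 higher, where 51.6% and 0.828% of all genes were. The list had a median of -0.41 in endocrine-like cells, with 0 called, and of -0.57 in plasma-like cells, with 3 called lower and 0 higher, where 57.4% and 1.5% of all genes were. After centring, its medians were -0.14, 0.01 and 0.66.

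Of the 13 listed ATF4 targets, in acinar-like against other cells 2 were called higher (ASNS and PSAT1), 3 lower and 4 were not measured, where 0.828% of all genes were called higher and 51.6% lower. In plasma-like cells 0 of the 13 were called higher and 8 lower, where 1.5% and 57.4% of all genes were.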
